A study of Homo sapiens with 6 samples.

Results

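The protocadherins are the largest subgroup of the cadherin superfamily of cell adhesion proteins, and 71 of the 58825 genes measured in HK-2 cells belong to them. They were taken as every gene whose name starts with PCDH, without the 6 whose names end in P, or in P and a digit, for pseudogene. Of these 71, 66 are protein-coding. The PCDHA (α) cluster holds 15 of them, the PCDHB (β) cluster 16 and the PCDHG (γ) cluster 22, which makes 53 clustered genes, and 13 are non-clustered. The remaining 5 are 4 antisense RNAs of PCDH9 and PCDHA14, which the table describes as a pseudogene although its name passes the rule, and all 5 were listed at a count of 0 in every library.

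HK-2 cells are human kidney epithelial cells, derived from the proximal tubule and immortalized. Poly(A) RNA was sequenced from 3 libraries of untreated HK-2 cells (Control) and 3 libraries of HK-2 cells given 25 μg/ml oxidized low-density lipoprotein (OX-LDL) for 48 h. Per the methods, cells were starved in low-serum medium before treatment, and the labels give no other treatment for either group. The labels do not say whether the libraries of a group came from separate cultures, so p-values measure the spread between libraries, which may be technical.

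Protocadherins carry extracellular cadherin repeats that bind the same protein on a neighbouring cell. In the α and γ clusters, each gene has its own large first exon with its own promoter, and this variable exon is spliced to constant exons that all genes of the cluster share, so the members differ outside the cell and have the same intracellular end. Genes of the β cluster have a single large coding exon. CTCF and cohesin fold the clusters so that an enhancer meets a chosen promoter, and DNA methylation silences the promoters that are not chosen. Neurons use these combinations to tell their own branches from those of other cells. Non-clustered protocadherins, most of them δ-protocadherins with conserved intracellular motifs, are single genes that act in cell sorting and adhesion in epithelia and in the nervous system.

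Because α and γ genes share exons, a read from a constant exon fits every gene of its cluster. The first constant exon is printed for both clusters because it is the part that makes these counts uncertain. Capitals mark the 39 of 59 positions at which the α and γ exons are identical. The γ exon lies at chr5:141494807-141494865 and the α exon at chr5:140978949-140979007, both on the plus strand of GRCh38 and both exons in release 29 of the GENCODE annotation.
PCDHG constant exon: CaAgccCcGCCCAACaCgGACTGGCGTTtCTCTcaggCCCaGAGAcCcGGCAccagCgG
PCDHA constant exon: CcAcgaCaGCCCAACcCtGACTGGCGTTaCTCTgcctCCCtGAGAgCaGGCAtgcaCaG
The γ sequence was found in transcripts of 22 of 22 PCDHG genes and the α sequence in transcripts of 15 of 15 PCDHA genes, and neither was found in any other protocadherin. Exon bases shared with another protocadherin, most of them in constant exons, made up 27.6% to 64.4% of the exon bases of the PCDHG genes and 21.3% to 56.6% of those of the PCDHA genes. The highest shares, of PCDHGB4 and PCDHA2, include bases shared outside the constant exons. No exon was shared among the PCDHB genes or the non-clustered genes. At the read length of 150 bases, a median of 42.3% of the windows in a PCDHG gene's transcripts and 45.6% in a PCDHA gene's were also found in another protocadherin, against 2.91% for PCDHB genes. Apart from the pair PCDH11X and PCDH11Y, non-clustered genes had no such window. Values of single α and γ genes are therefore estimates of how shared reads were divided, and sums over a cluster do not depend on how they were divided among its members.

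The variable exons have promoters of their own. RefSeq promoter windows (GRCh38.p14) ran from 250 bases before to 50 bases after a RefSeq start. They were matched for 61 of the 71 genes, 58 of them protein-coding, and some genes had more than 1. Windows of 60 bases are printed for the 3 γ genes with the highest levels in HK-2 cells, with the motif CCGCTGT in capitals. This motif was chosen after these promoters had been read.
PCDHGA7, chr5:141382634-141382693, plus strand: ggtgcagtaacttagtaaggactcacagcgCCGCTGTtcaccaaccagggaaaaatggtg
PCDHGB5, chr5:141397848-141397907, plus strand: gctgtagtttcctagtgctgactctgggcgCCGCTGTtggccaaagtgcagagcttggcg
PCDHGC3, chr5:141475865-141475924, plus strand: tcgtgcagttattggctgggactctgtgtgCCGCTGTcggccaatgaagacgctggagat
For these 3 genes, the RefSeq starts differ from the starts in the authors' table, which are given with each gene below. The motif began 78, 69 and 71 bases before the RefSeq starts used for PCDHGA7, PCDHGB5 and PCDHGC3, and the windows overlapped no annotated exon. Each lies inside the span of γ genes that start further upstream, 9, 12 and 19 of them in the same order. Searched on both strands, the motif was found for 11 of 20 PCDHG genes, 0 of 13 PCDHA, 0 of 14 PCDHB and 0 of 11 non-clustered genes. A gene counted if any of its windows held the motif. Of all 35116 promoter windows, counted singly, 3.89% held it, so that share is in another unit. The motif was found for 3 of the 4 PCDHG genes above 100 counts in any library and for 8 of the 16 others. Those 3 are PCDHGA7, PCDHGB5 and PCDHGC3, from whose promoters it was chosen, so the comparison is no test of a link with level. The shorter core CGCT was found for all 20 PCDHG genes, but it is also in 70.0% of all promoter windows.

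The levels of protocadherins in HK-2 cells were low, and few genes carried them. Levels are given as FPKM (fragments per kilobase of transcript, scaled by the authors for library size), so genes can be compared per length. About 4 deposited counts corresponded to 1 read pair, and the detection limit of a library was set at 12 counts, or 3 read pairs. Without PCDH11Y, whose level is not reported, 20 of 65 protein-coding protocadherins had no count in any library, 15 stayed at or under the limit, and 30 exceeded it in at least 1 library. Counts above the limit in all 6 libraries were found for 9 genes. The minimum for the test, 0.1 FPKM on average over all libraries, was reached by 9 genes, with PCDHGB7 in place of PCDHB13. Of these, 4 are γ genes (PCDHGA7, PCDHGB5, PCDHGB7 and PCDHGC3) and 5 are non-clustered (PCDH1, PCDH7, PCDH9, PCDH10 and PCDH17). Just above the minimum were PCDHGB7 (mean 0.121 FPKM) and PCDH17 (0.119 FPKM), and just below it were PCDHB13 (0.0955 FPKM) and PCDHGB2 (0.0536 FPKM).

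Total counts ranged from 62561347 to 76797607 per library. The first principal component of all tested genes, with 34.8% of the variance, separated the groups. On the second component, OX-LDL replicate 2 lay at −67.1, and the other libraries lay between −25.6 (Control replicate 1) and 41.0 (OX-LDL replicate 1). As to the label, the epithelial genes KRT8, KRT18 and EPCAM and the kidney transcription factor PAX8 were expressed, while LRP2 (megalin), which defines the proximal tubule brush border, had no count in any library. The other brush border and tubule genes CUBN, AQP1 and ANPEP reached at most 46, 45 and 23 counts. CDH1 (E-cadherin) was at 0.0968 ± 0.0611 FPKM in Control and 0.106 ± 0.040 FPKM after OX-LDL (SD, n = 3 each), so these markers were absent or nearly so. The cadherins CDH2 and CDH6 of the same marker list were well expressed. CDH2 was at 37.7 ± 0.2 FPKM in Control and 45.1 ± 2.9 FPKM after OX-LDL, and CDH6 at 10.7 ± 2.2 and 27.0 ± 1.7 FPKM (SD, n = 3 each). In bulk RNA, fewer cells of a type and less RNA per cell cannot be told apart.

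PCDH1 and PCDHGA7 decreased with OX-LDL, and no protocadherin passed the same threshold on the higher side (2 did at an unadjusted p-value under 0.05 in edgeR, and 2 at an adjusted one in DESeq2). In the quasi-likelihood test of edgeR, adjusted p-values were under 0.05 for 2 of the 9 tested protocadherins, both lower in OX-LDL, against 15.3% of all 19510 genes tested, of which 7.42% were lower and 7.91% higher. A count of 2 in 9 is close to that background. At an unadjusted p-value under 0.05, PCDH10 and PCDHGB7 on the higher side and PCDH17 on the lower side joined them, which gives 5 of 9 genes against 30.4% of all genes. The fold limits of the study (over 2 or under 0.5) were also applied, with an unadjusted p-value under 0.05 in edgeR. With these limits 4 of 9 passed (PCDH1, PCDH17, PCDHGA7 and PCDHGB7), against 6.36% of all genes. The paper's results state p under 0.05 without saying whether it was adjusted, while its methods name adjusted p-values. PCDH17 and PCDHGB7 reached the minimum of 0.1 FPKM only through the group where they were high. PCDH17 averaged 0.192 FPKM in Control and 0.0473 FPKM after OX-LDL, and PCDHGB7 averaged 0.00574 and 0.236 FPKM. The counts of 5 of 9 and 4 of 9 are therefore raised by the minimum and are no test of the family. The median log2 fold change was 0.55 over the 4 tested γ genes and −0.15 over the 5 tested non-clustered genes, beside −0.0043 over all genes. The first of these turned to −0.09 with limma on log2(FPKM + 1). It lies between γ values of opposite sign: −1.39 (PCDHGA7), −0.45 (PCDHGB5), 1.56 (PCDHGC3) and 5.23 (PCDHGB7), of which only PCDHGA7 passed the adjusted threshold.

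**Figure D1:**
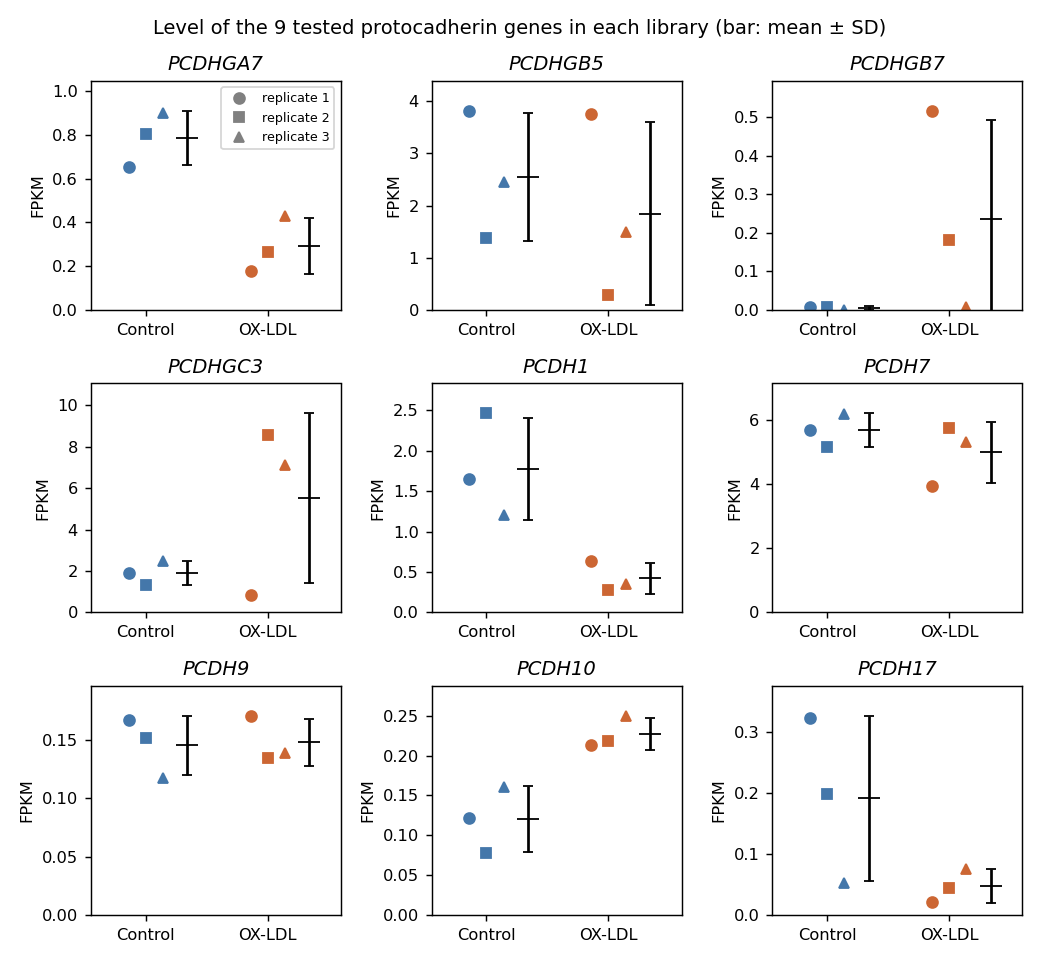
Level of the 9 tested protocadherin genes in FPKM (vertical axes, each starting at 0) in the 3 Control libraries (blue) and the 3 OX-LDL libraries (orange), with the shape of a point giving the replicate number and the black bar the mean ± SD of a group, ended at 0. The 2 groups stood apart for PCDHGA7 and PCDH1, which were lower in OX-LDL, and for PCDH10, which was higher.

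**Figure D2:**
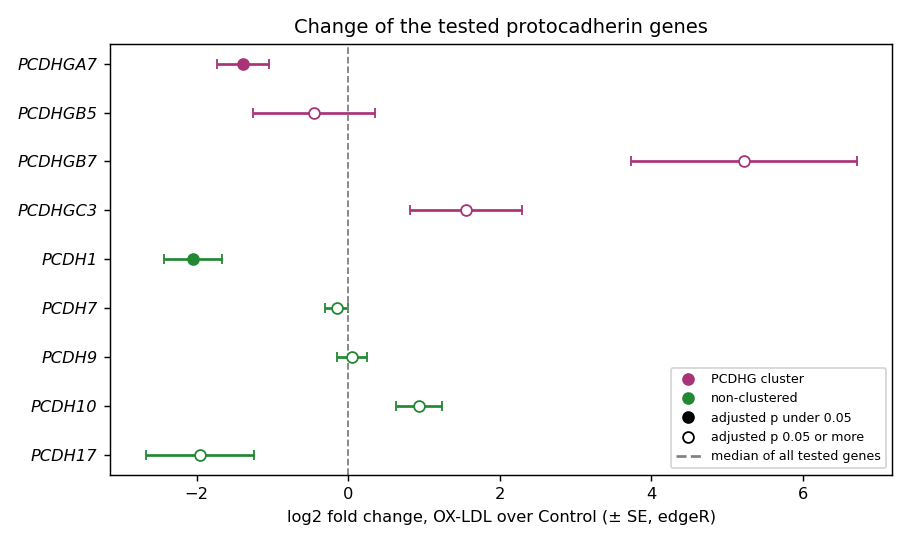
Log2 fold change of OX-LDL over Control with its SE (horizontal axis) for the 9 tested protocadherin genes, with γ genes in purple and non-clustered genes in green. Filled points are the 2 genes with an adjusted p-value under 0.05, PCDHGA7 and PCDH1, and the dashed line is the median of all tested genes.

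The γ cluster held most of the clustered protocadherin RNA, and its make-up differed between libraries. Its genes comprise the γA, γB and C-type subfamilies, and their products pair within the membrane before they bind a neighbouring cell. The 22 genes summed to 2958, 1741 and 2579 counts in Control replicates 1 to 3 and to 2063, 4719 and 4588 counts after OX-LDL replicates 1 to 3. OX-LDL replicate 1 lay among the Control libraries, and the other 2 OX-LDL libraries lay above them. The sum differed by 0.65 ± 0.30 (log2 fold change ± SE; adjusted p-value of 0.198 in edgeR), and the groups overlapped. Within the cluster, 1 gene had no count, 8 stayed at or under the detection limit and 13 exceeded it in at least 1 library.

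PCDHGC3, the most widely expressed of the C-type genes, had the highest mean level of the clustered genes over the 6 libraries, although PCDHGB5 exceeded it in Control replicates 1 and 2 and in OX-LDL replicate 1. It is ENSG00000240184, at chr5:141475947-141512975, and its FPKM was 1.92, 1.34 and 2.48 in Control and 0.848, 8.57 and 7.11 in OX-LDL. OX-LDL replicate 1 was below every Control library, while OX-LDL replicates 2 and 3 were above every one of them. The means were 1.92 ± 0.57 FPKM in Control and 5.51 ± 4.10 FPKM after OX-LDL (SD, n = 3 each), the log2 fold change was 1.56 ± 0.74 (SE), and the adjusted p-value was 0.211 in edgeR. Without OX-LDL replicate 1, the log2 fold change was 2.07 with an adjusted p-value of 0.0180, so this library decided the call. Constant exons made up 40.2% of its exon bases.

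PCDHGB5, a γB gene (ENSG00000276547, chr5:141397987-141512979), was the second by the mean over the 6 libraries. Its FPKM was 3.81, 1.38 and 2.45 in Control and 3.75, 0.289 and 1.50 in OX-LDL. The groups overlapped, and OX-LDL replicate 2, the highest library for PCDHGC3, was the lowest for PCDHGB5. OX-LDL differed from Control by a log2 fold change of −0.45 ± 0.81 (SE), and the adjusted p-value was 0.761 in edgeR.

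PCDHGA7, a γA gene (ENSG00000253537, chr5:141382739-141512975), decreased. Its FPKM was 0.655, 0.804 and 0.900 in Control and 0.180, 0.266 and 0.430 in OX-LDL, and each OX-LDL library lay below each Control library. The means were 0.786 ± 0.123 FPKM in Control and 0.292 ± 0.127 FPKM after OX-LDL (SD, n = 3 each), a 2.61-fold lower level in OX-LDL by the fit. This was a log2 fold change of −1.39 ± 0.34 (SE), and the adjusted p-value was 0.0380 in edgeR. The call rests on all but 1 of the libraries: leaving out OX-LDL replicate 3 gave an adjusted p-value of 0.0326, and leaving out any of the other 5 gave 0.0695 to 0.108, with log2 fold changes from −1.78 to −1.13 over the 6 fits. Constant exons made up 40.1% of its exon bases.

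PCDHGB7, a γB gene (ENSG00000254122, chr5:141417645-141512979), was at or below the detection limit in Control with 4, 4 and 0 counts. In OX-LDL it had 191, 83 and 4 counts. OX-LDL replicates 1 and 2 thus exceeded every Control library, and OX-LDL replicate 3 did not. The fitted log2 fold change of 5.23 ± 1.49 (SE; adjusted p-value of 0.0600 in edgeR) depends on the small count added to such genes in the fit and is not a bound. It was 0.28 to 3.02 with limma at pseudocounts of 1 to 0.01, 3.95 without OX-LDL replicate 1, and 5.79 without OX-LDL replicate 3, where the adjusted p-value was 0.0301 in edgeR. Among the γ genes under the minimum, PCDHGB1 had 70 counts after OX-LDL replicate 2 and at most 4 in the other 5 libraries, and PCDHGC5 had 0, 12 and 12 counts in Control and 23, 0 and 64 in OX-LDL. PCDHGA1, the second γA gene by level, averaged 0.0267 FPKM.

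The division of the cluster among its genes was also read within each library, where library size cancels. PCDHGC3 took 31.1%, 37.4% and 42.6% of the γ counts in Control and 16.6%, 89.5% and 76.2% in OX-LDL. PCDHGB5 took 54.9%, 34.3% and 37.6% in Control and 65.1%, 2.71% and 14.4% in OX-LDL. In each of OX-LDL replicates 2 and 3, PCDHGC3 was the gene with most of the counts, and in OX-LDL replicate 1 it was PCDHGB5.

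The ratio of PCDHGC3 to PCDHGB5 counts was 0.566, 1.09 and 1.13 in Control and 0.255, 33.0 and 5.30 in OX-LDL. Its log2 value differed between the groups by 2.00, with p = 0.4 in a two-sided exact permutation test, in which 3 libraries against 3 cannot give a p below 0.1. PCDHGA7 took 10.6%, 22.5% and 15.5% of the γ counts in Control and 3.54%, 2.80% and 4.64% in OX-LDL. Its groups did not overlap (p = 0.1 in the exact permutation test, the smallest possible, and 0.5 after Benjamini-Hochberg adjustment over the 5 measures of the cluster's make-up). The other 19 genes together took 3.35%, 5.74% and 4.34% in Control and 14.8%, 4.96% and 4.77% in OX-LDL.

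Counting error was smaller than these differences between libraries. At 4 counts per read pair, the 95% Wilson intervals of the share of PCDHGC3 were 13.7% to 20.1% in OX-LDL replicate 1 and 87.6% to 91.1% in OX-LDL replicate 2. These intervals cover counting error only, not the division of shared reads.

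**Figure D3:**
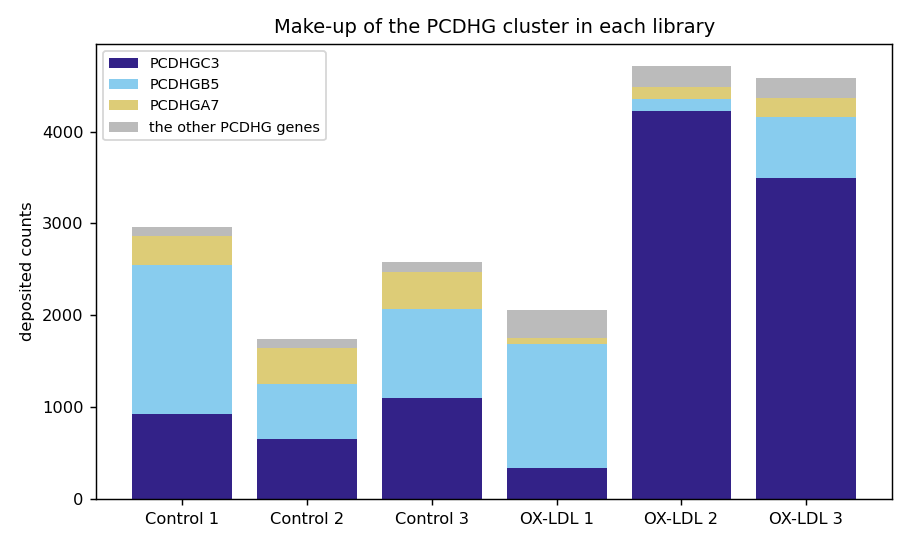
Deposited counts of the PCDHG cluster (vertical axis, from 0) in each library, stacked by gene: PCDHGC3, PCDHGB5, PCDHGA7 and the other 19 genes. PCDHGC3 fills most of the bar in OX-LDL replicates 2 and 3 and PCDHGB5 most of it in OX-LDL replicate 1, and the PCDHGA7 band is narrower in the OX-LDL libraries than in the Control libraries.

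The α cluster was close to silent in HK-2 cells. Its products share an intracellular end that differs from that of the γ proteins and is known to bind the WAVE complex. Of the 15 genes, 10 had no count in any library, 2 stayed at or under the detection limit, and 3 (PCDHA9, PCDHA12 and the C-type gene PCDHAC2) exceeded it in at least 1 library. The sum over the cluster was 26, 16 and 31 counts in Control and 56, 58 and 56 counts after OX-LDL, so each OX-LDL library exceeded each Control library. The log2 fold change was 1.26 ± 0.40 (SE), with an unadjusted p-value of 0.0156 and an adjusted p-value of 0.0783 in edgeR, where 15.3% of 19505 genes and sums passed 0.05. Different genes made up these sums. PCDHA12 had 16, 4 and 4 counts in Control and 38, 0 and 6 in OX-LDL, and PCDHA9 had 0, 8 and 12 counts in Control and 0, 38 and 34 in OX-LDL. At these counts, differences of single α genes were not detectable.

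The β cluster was expressed at low levels from several genes. Of its 16 genes, 4 had no count, 4 stayed at or under the limit and 8 exceeded it in at least 1 library. PCDHB13 (ENSG00000187372, chr5:141213919-141218979), the highest, had 21, 44 and 28 counts in Control and 69, 25 and 59 in OX-LDL, with overlapping groups. PCDHB3, the second, averaged 0.0310 FPKM. PCDHB15 had 14, 12 and 11 counts in Control and 0, 2 and 0 in OX-LDL. It was the only α or β gene above the detection limit in any library whose groups did not overlap. Groups did not overlap for 4 of the 30 genes above the limit in at least 1 library (PCDH1, PCDH10, PCDHGA7 and PCDHB15), against 35% of all such genes. The β sum was 83, 87 and 86 counts in Control and 122, 71 and 181 in OX-LDL, with a log2 fold change of 0.61 ± 0.37 (SE) and an adjusted p-value of 0.331 in edgeR. OX-LDL replicate 2 was the lowest of the 6 libraries and the other 2 OX-LDL libraries were the highest.

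PCDH1, a δ1-protocadherin of epithelia known from the airway, decreased and had the lowest p-value of the 9 tested protocadherins in edgeR. It is ENSG00000156453, at chr5:141853111-141879246 on the minus strand, and no annotated gene overlaps its span. Its FPKM was 1.66, 2.46 and 1.21 in Control and 0.633, 0.276 and 0.351 in OX-LDL, and each OX-LDL library lay below each Control library. The means were 1.78 ± 0.64 FPKM in Control and 0.420 ± 0.188 FPKM after OX-LDL (SD, n = 3 each), and the fit gave a 4.14-fold lower level in OX-LDL. This was a log2 fold change of −2.05 ± 0.38 (SE), and the adjusted p-value was 0.0169 in edgeR. Leaving out Control replicate 2, its highest library, raised the adjusted p-value to 0.0579, and leaving out OX-LDL replicate 3 raised it to 0.0687, while it stayed under 0.05 without any of the other 4 libraries. Log2 fold changes were −2.45 to −1.75 over these fits.

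PCDH7, another δ1-protocadherin, had the highest mean level of the protocadherins over the 6 libraries, although PCDHGC3 exceeded it in OX-LDL replicates 2 and 3. It is ENSG00000169851, at chr4:30720415-31142954, with 5.68, 5.14 and 6.19 FPKM in Control and 3.93, 5.75 and 5.29 FPKM after OX-LDL. Only OX-LDL replicate 1 lay below all Control libraries, and the groups overlapped. OX-LDL differed from Control by a log2 fold change of −0.15 ± 0.16 (SE), and the adjusted p-value was 0.573 in edgeR. Without OX-LDL replicate 1 the log2 fold change was 0.00057. PCDH7 made up 74.1% to 89.2% of the non-clustered counts in every library, so it sets most of the level of their sum. The difference of that sum between the groups also holds the decrease of PCDH1. Mean counts were 5969 in Control and 5274 after OX-LDL for PCDH7, and 913 and 204 for PCDH1.

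PCDH9, also of the δ1 group (ENSG00000184226, chr13:66302834-67230445, minus strand), was low. Its FPKM was 0.167, 0.152 and 0.118 in Control and 0.171, 0.135 and 0.139 in OX-LDL. The groups overlapped, and the log2 fold change was 0.057 ± 0.20 (SE; adjusted p-value of 0.885 in edgeR). PCDH11X, the X-linked member of the group, had no count.

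The δ2-protocadherins PCDH10 and PCDH17 bind the WAVE complex, which builds branched actin, through their intracellular ends. Neither passed the adjusted threshold in HK-2 cells. PCDH10 (ENSG00000138650, chr4:133149294-133194700) had 0.122, 0.0780 and 0.161 FPKM in Control and 0.213, 0.219 and 0.250 FPKM after OX-LDL. Each OX-LDL library lay above each Control library. The log2 fold change was 0.94 ± 0.30 (SE), with an unadjusted p-value of 0.0180 and an adjusted p-value of 0.0856 in edgeR. It was the only tested protocadherin that was higher in OX-LDL without overlap, and 3 of the 9 tested genes had groups that did not overlap, against 37.2% of all tested genes.

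PCDH17 (ENSG00000118946, chr13:57631744-57729311) had 0.323, 0.200 and 0.0523 FPKM in Control and 0.0214, 0.0444 and 0.0760 FPKM after OX-LDL. Control replicate 3 lay between the OX-LDL libraries. The log2 fold change was −1.96 ± 0.71 (SE), with an unadjusted p-value of 0.0296 and an adjusted p-value of 0.119 in edgeR. The adjusted p-value was 0.0465 without Control replicate 3. Of the other δ2 genes, PCDH8 and PCDH19 had no count, and PCDH18 reached 8 counts in 1 library. PCDH12, which is known from endothelium, reached 23 counts in Control replicate 2, and PCDH15 of sensory hair cells had no count.

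The contrast of the clusters with the non-clustered genes was made within each library, as the log2 ratio of their summed counts. Non-clustered genes summed to 7779, 7582 and 7234 counts in Control and 4408, 7168 and 6754 in OX-LDL. Scaled for library size, all 3 OX-LDL values were lower than the Control values, at 84.9 ± 12.5 against 102 ± 4 CPM (counts scaled for library size; SD, n = 3 each). This sum had a log2 fold change of −0.27 ± 0.12 (SE), and the adjusted p-value was 0.176 in edgeR.

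The share of non-clustered genes in all protocadherin counts was 71.7%, 80.4% and 72.8% in Control and 66.3%, 59.7% and 58.3% in OX-LDL. That of the γ cluster was 27.3%, 18.5% and 26.0% in Control and 31.0%, 39.3% and 39.6% in OX-LDL. All OX-LDL libraries thus had a larger γ share than any Control library.

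Relative to the non-clustered genes, the γ cluster was 0.92 higher in OX-LDL on the log2 scale (−0.75 ± 0.30 against −1.67 ± 0.40; SD, n = 3 each; p = 0.1 in the exact permutation test). This ratio rests on PCDHGC3: without that gene the difference was −0.27 (p = 0.8 in the same exact test). The α cluster was 1.61 higher (−6.72 ± 0.37 against −8.33 ± 0.52; SD, n = 3 each; p = 0.1, exact permutation test), and its groups did not overlap either. Without its most abundant gene the difference was 1.21 (p = 0.3, exact permutation test). Without PCDH7 in the non-clustered sum, the α difference was 2.13 (p = 0.1), the γ difference 1.44 (p = 0.2) and the β difference 1.303 (p = 0.1, all exact permutation tests). These 3 ratios share the non-clustered sum, so a change of that sum enters each of them. For the β cluster with PCDH7 in that sum, the difference was 0.78 (−5.68 ± 0.84 against −6.46 ± 0.08; SD, n = 3 each; p = 0.4, exact permutation test), with overlap. Adjusted over these 3 ratios (Benjamini-Hochberg), the exact p-values were 0.15 for α and γ and 0.4 for β.

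**Figure D4:**
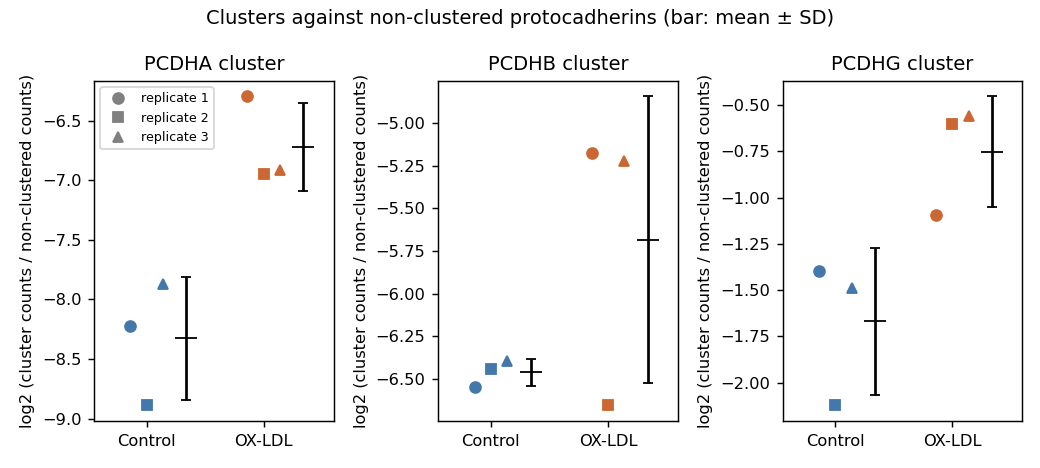
Log2 ratio of the summed counts of the PCDHA, PCDHB and PCDHG clusters to those of the non-clustered genes (vertical axes, which differ between panels and do not start at 0) in the 3 Control (blue) and 3 OX-LDL (orange) libraries, with mean ± SD in black and the shape giving the replicate number. The groups do not overlap for PCDHA and PCDHG, and for PCDHB OX-LDL replicate 2 lies below the Control libraries.

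Genes of the pathway around the protocadherins were read from lists. Over all tested genes, 7.91% increased and 7.42% decreased in edgeR. In either direction, 30.4% had an unadjusted p-value under 0.05 in edgeR and 22.7% passed in DESeq2. These shares stand beside all list counts below. Of 11 genes of CTCF, cohesin and its loaders and releasers, which shape the clusters, 1 increased and 10 did not pass the test. Their median log2 fold change was 0.01 (1 was lower at an unadjusted p-value under 0.05, and 1 in DESeq2). RAD21, the kleisin subunit of cohesin, rose from 46.6 ± 2.8 to 61.3 ± 2.0 FPKM (SD, n = 3 each; adjusted p-value of 0.0142 in edgeR). CTCF was at 5.42 ± 0.19 FPKM in Control and 4.88 ± 0.11 FPKM after OX-LDL (adjusted p-value of 0.319).

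Of 8 genes that methylate DNA or keep chromatin silent, 2 decreased and 6 did not pass the test, with a median log2 fold change of −0.13, where 7.42% of all tested genes decreased. At an unadjusted p-value under 0.05, 3 were lower, and 2 were lower in DESeq2. DNMT3B, a de novo DNA methyltransferase, had 18.5, 19.5 and 18.9 FPKM in Control and 8.23, 10.1 and 8.17 FPKM after OX-LDL. The log2 fold change was −1.07 ± 0.10 (SE), and the adjusted p-value was 0.00219 in edgeR, and the groups lay far apart. DNMT1, which copies methylation after replication, fell by 0.38 on the log2 scale (adjusted p-value of 0.0331). SMCHD1 and SETDB1, which are known to hold clustered protocadherins silent in other cells, did not pass the test, with log2 fold changes of 0.19 and −0.27. No methylation was measured, and the part of these genes in the protocadherin values was not tested.

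Of 7 genes listed for protocadherin signalling inside the cell, 6 were tested, and binding to protocadherins was not measured. CTNNB1 (β-catenin) rose from 15.3 ± 0.4 to 22.4 ± 0.2 FPKM and AXIN1, a scaffold that promotes β-catenin breakdown, fell from 4.49 ± 0.09 to 2.84 ± 0.37 FPKM (SD, n = 3 each; adjusted p-values of 0.00295 and 0.0148 in edgeR). The focal adhesion kinase genes PTK2 and PTK2B had log2 fold changes of −0.13 and −0.04 and did not pass. Of 9 WAVE complex genes, WASF1 (log2 fold change −0.68) and ABI2 (−0.79) decreased, where 7.42% of all tested genes decreased, 7 did not pass, and the median was 0.03. Of the 6 tested genes that cut protocadherins at the membrane, NCSTN, a γ-secretase subunit, increased (log2 fold change 0.41, adjusted p-value of 0.00850 in edgeR), and ADAM10, the sheddase, did not pass (0.30, adjusted p-value of 0.0634). Of these 6, 2 were higher at an unadjusted p-value under 0.05, and 2 in DESeq2. Over all tested genes 7.91% increased in edgeR, and 30.4% and 22.7% passed these other 2 limits in either direction. Of 17 other large and atypical cadherins, 9 were tested and 0 passed in edgeR, with a median of 0.24, while 3 had an unadjusted p-value under 0.05 and 2 passed in DESeq2, all of them higher after OX-LDL.

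Markers of cells known for protocadherins were read in the same libraries. Of 10 neuron and glia markers, 6 were tested. Of these, 2 increased (SNAP25 and NEFL) and 2 decreased (SYT1 and MBP), beside 7.91% higher and 7.42% lower over all tested genes. SYT1 was at 6.19 ± 0.64 FPKM in Control and 3.62 ± 0.27 FPKM after OX-LDL, and MBP at 3.01 ± 0.10 and 1.36 ± 0.22 FPKM (SD, n = 3 each). The summed level of the list was 10.9 to 11.9 FPKM in Control and 8.23 to 9.77 FPKM after OX-LDL, and STMN2 and OLIG2 were at 0 in every library. None of 6 endothelial markers reached the minimum, and CDH5, VWF and KDR were not above the detection limit. Of 7 fibroblast markers, 2 were tested and neither passed (1 at an unadjusted p-value under 0.05, 0 in DESeq2), and COL1A2, DCN and PDGFRA were not above the limit. Their sum was 10.1 to 12.01 FPKM in Control and 8.77 to 14.1 FPKM after OX-LDL, most of it from LUM, a matrix proteoglycan, at 10.2 ± 1.1 and 11.4 ± 2.9 FPKM (SD, n = 3 each). Of 4 leukocyte markers, 2 were tested and neither passed (1 at an unadjusted p-value under 0.05, and 1 in DESeq2). The leukocyte sum was 3.11 to 7.74 FPKM in Control and 9.16 to 14.0 FPKM after OX-LDL, nearly all of it CD68, which lysosomes of other cells also hold, and PTPRC and CD3E were not above the limit. Of 13 epithelial and proximal tubule markers, 12 were matched, and GGT1 was left out because the table lists its symbol under 2 identifiers. Of the 8 tested, 4 increased (KRT8, KRT19, CDH2 and CDH6) and 1 decreased (PAX8), beside 7.91% higher and 7.42% lower over all tested genes. Their sum was 217 to 245 FPKM in Control and 275 to 312 FPKM after OX-LDL, and their part in the protocadherin values was not tested.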

How the data were processed

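RNA-seq was analyzed in 6 HK-2 libraries (3 Control and 3 OX-LDL), grouped by their labels. The authors deposited 1 table with estimated counts, not scaled for library size, and FPKM values, scaled for length and library size, with a count of 0 listed at 0.0001 FPKM. The submitters' processing notes name cutadapt 1.9, HISAT2 2.0.4, StringTie 1.3.4d, edgeR, DESeq2 and GRCh38. Libraries were stranded, but the strand setting of the counting is not given in the sources used here, so reads of overlapping genes may be shared.

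Counts were whole numbers and were fitted with edgeR 4.0.16 (TMM, glmQLFit, glmQLFTest; R 4.3.3) on all 19510 genes that averaged 0.1 FPKM or more, with group as the only term and Benjamini-Hochberg adjustment over all of them. SE is the absolute log2 fold change over the square root of F. Cluster sums entered a fit of 19505 rows in place of their members, whatever their level. Ratios and shares were compared by two-sided exact permutation tests. Depth was 62561347 to 76797607 counts per library. Genes at 4, 8 and 12 counts were 3.26, 2.95 and 2.13 times as frequent as those at the neighbouring counts, hence about 4 counts per read pair. Pairs of libraries in a group differed by a chi-square of at least 62.9 per gene, so none was deposited more than once.

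Members and gene lists were chosen with earlier results of these data known. The genes named were those with a p-value under 0.05, the 2 highest of each subfamily, PCDH1, PCDH17 and PCDHGA7, which the study named from these libraries and which are therefore no independent evidence, up to 4 called genes of each list, and the highest markers. Others named for their counts were chosen after their values were seen, as were genes named as not passing. The fits were run on simulated data with the same dispersion for every gene, which does not show how they perform at the spread of these libraries. Alternatives were DESeq2 1.42.0, RLE size factors, other minimums, limma 3.58.1 with pseudocounts of 0.1, 1 and 0.01, counts divided by 4, a replicate block and leaving out each library. The level of PCDH11Y is not reported. In addition, 2 genes of the lists are not reported here and were left out of them. A list symbol with more than 1 row in the table (GGT1) was not matched. Of the 71 members, 44 had identical coordinates in GENCODE 29 (GRCh38), and positions are those of the authors' table.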

Additional observations from a re-analysis of the deposited data

How the results depend on the processing

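The number of protocadherins called, 2, was 5 with DESeq2 (PCDH10, PCDH17 and PCDHGB7 added), where 22.7% of all genes were called. With a minimum of 1 FPKM it was 1 of the 4 genes fitted, where 25.7% of all genes were called. It was 0 to 2 when 1 library was left out. In these fits 5.95% to 15.1% of all genes were called, against 15.3% with every library. It was 0 without Control replicate 2 (5.95% of all genes), where edgeR gave 4 genes an unadjusted p-value under 0.05. It was 1 without Control replicate 1 (9.21% of all genes) or OX-LDL replicate 2 (15.1%). The replicate numbers shared by the groups did not pair the libraries (correlations of deviations from −0.041 to 0.036 for the same numbers, and from −0.054 to 0.056 over all pairs). With the replicate block, 3 protocadherins were called, PCDHGB7 added, among 8.39% of all genes. The α sum passed the threshold with DESeq2 (log2 fold change 1.27, adjusted p-value of 0.0387) and with a minimum of 1 FPKM (1.27, 0.0350), and was 0.0675 with limma on log2(FPKM + 1). The non-clustered sum passed it with limma at pseudocounts of 0.1, 1 and 0.01 (−0.44, −0.39 and −0.44, with adjusted p-values of 0.0451, 0.0441 and 0.0463). The causes of these differences were not tested. Sign changes were found for the γ to non-clustered ratio without PCDHGC3 (−0.27), PCDH7 without OX-LDL replicate 1 (0.00057), PCDH9 without Control replicate 3 (−0.0749) or OX-LDL replicate 1 (−0.0513; from −0.0749 to 0.18 without each library), and PCDHGB5 without OX-LDL replicate 2 (0.0645; from −1.47 to 0.0645). None of these values passed the test. Leaving out 1 library, the α, β, γ and non-clustered sums ranged from 1.01 to 1.52, 0.32 to 0.91, 0.44 to 0.90 and −0.35 to −0.15, and the α, β and γ ratios from 1.32 to 1.84, 0.52 to 1.26 and 0.69 to 1.09. Where 1 group keeps 2 libraries, the ratios' exact test cannot pass 0.05. Depth limits the α and β genes, with at most 38 and 69 counts in any library.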
